A study of Mus musculus with 2 samples.

Results

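Apoe, the gene of apolipoprotein E, was measured by 1 of the 50 gene probes on a microarray made mainly for small RNAs. The probe is A_51_P171999, listed by the array under the transcript NM_009696, and its members were all of its spots that the scanner had not marked as outliers. Of its 10 spots on each array, 10 were retained on the OGD/R array and 9 on the control array. The samples came from BV-2, an immortalized line of mouse microglia, with 1 array per group. OGD/R cells went through oxygen and glucose deprivation, in medium without glucose or serum and in 5% CO2 and 95% N2 at 37 °C for 2 h, and were then put back into regular medium and normal oxygen. The sources used here do not say how long they stayed there. Control cells were BV-2 cells kept in 5% CO2 at 37 °C, for which the labels name no deprivation and no N2. On each array Cy5 labelled the RNA that carried a modification and was pulled down with beads (IP), and Cy3 labelled the unmodified RNA of the supernatant (Sup). The sources used here do not name the modification.

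Apolipoprotein E is a secreted lipid carrier that packages cholesterol and phospholipids into lipoprotein particles. In the brain astrocytes make most of it, and microglia raise its expression when they take up debris and myelin lipids. The particles are loaded with lipid by the transporters Abca1 and Abcg1, bind cell-surface receptors such as the microglial receptor Trem2, and the gene is driven by liver X receptors as cellular sterols accumulate. RNA modifications are known to act on the stability and translation of transcripts. An IP/Sup ratio reads how a transcript divides between the pulled-down and the remaining RNA, and it can change through either fraction. In the RefSeq annotation (assembly GRCm38.p6) Apoe lies between Apoc1, another apolipoprotein gene, and Tomm40, a gene of mitochondrial protein import, and has 4 curated transcripts. The array's own design names mm9, so no coordinates are given. Which of the 4 transcripts the probe detects was not tested.

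With 1 array per group no test between the conditions could be made. Spots repeat the measurement of 1 labelled RNA, so each SD below is technical error within an array. Each array held 15742 spots, of which 83 on the OGD/R array and 57 on the control array were marked as outliers, and 0 were saturated. The median processed signal of negative control spots was 31.0 and 31.7 in IP on the OGD/R and control arrays, and 27.5 and 28.8 in Sup.

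Apoe was measured far above background in every retained spot. Its median pixel intensity was 1860 times the local background in IP and 332 times in Sup on the OGD/R array, against 2980 and 1004 times on the control array. The brightest retained Apoe spot, in IP of the control array, reached 5.44% of the scanner's saturation value. The excluded control spot lay in the last column of the array, at row 131. It was marked for its Sup signal, which was 594554 after dye normalization, within the range of the retained control spots. After background subtraction alone it was 11612, below the lowest of those spots at 12032.

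The processed signals, which the scanner software had background-subtracted and dye-normalized, differed mainly in Sup. Apoe Sup signal ran from 150668 to 162281 with a median of 154707 over 10 OGD/R spots, against 551197 to 611655 with a median of 573045 over 9 control spots. The spots of the arrays did not overlap, and the lowest control spot was brighter than the highest OGD/R spot. Scaled by the 75th percentile of each array, Sup was 3.51-fold lower in OGD/R, a log2 difference of -1.81 with an SD of 0.05 over spots. Of 7970 RNAs measured in Sup on at least 1 array, 2.7% were at least 2-fold lower in OGD/R. The scaled value is relative to the other probes of each array, so it gives no amount of Apoe RNA per cell. Why Sup was lower was not tested.

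Apoe IP signal was nearly the same on both arrays in this processing. Before scaling it ran from 676956 to 710450 with a median of 697323 over OGD/R spots, against 755022 to 788357 with a median of 774797 over control spots. These ranges do not overlap. Without scaling the log2 difference was -0.15. After scaling, the spots covered 8.27 to 8.34 in OGD/R and 8.28 to 8.34 in control on the log2 scale and overlapped. Apoe IP then differed by -0.0024 on the log2 scale, with a spot SD of 0.03.

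**Figure D1:**
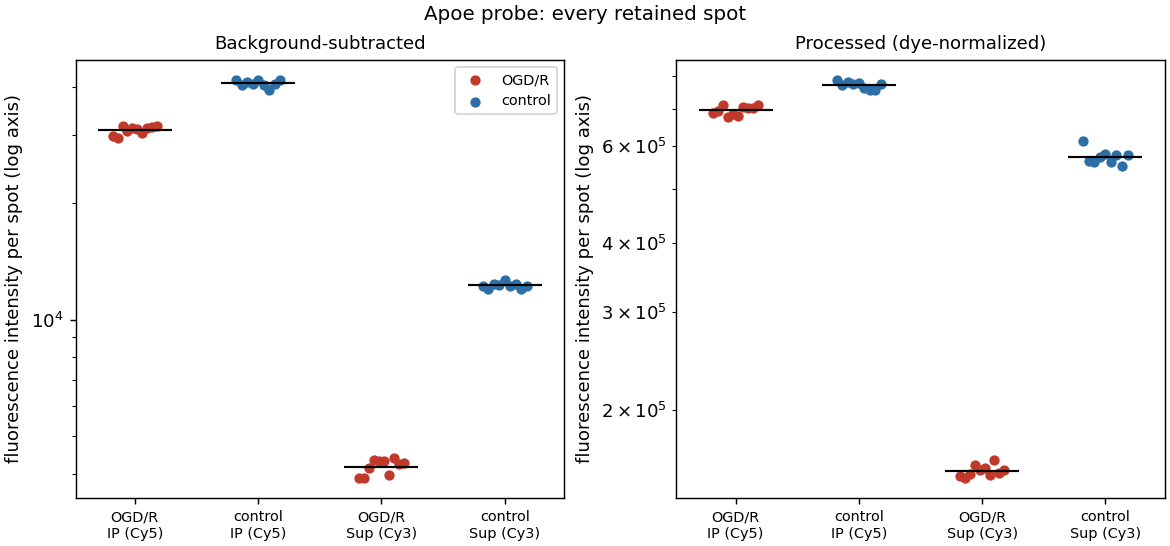
Fluorescence intensity of every retained Apoe spot on a log axis, background-subtracted (left) and after the scanner's dye normalization (right), for IP (Cy5) and Sup (Cy3) in OGD/R (10 spots) and control (9 spots); black bars are means. Sup spots of OGD/R lie well below those of control in both panels, and the IP spots lie closer together.

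The IP share of the Apoe signal, IP over the sum of both channels, was therefore larger in OGD/R. It ran from 81.0% to 82.3% over OGD/R spots with a mean of 81.7% ± 0.48 (SD, 10 spots). In control it ran from 56.3% to 58.2% with a mean of 57.4% ± 0.60 (SD, 9 spots). Expressed as a ratio, IP signal was 4.48 times Sup signal in OGD/R and 1.35 times in control. Dye normalization balances the channels of each array, so a share of this kind is relative to the other RNAs on the array and is not a fraction of Apoe molecules.

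Set against the median RNA of its own array, Apoe lay on the IP side in both groups. Its median-centred log2 IP/Sup ran from 2.39 to 2.52 over OGD/R spots, with a median of 2.49. Over control spots it ran from 0.65 to 0.76, with a median of 0.72. The ratio was 3.37-fold higher in OGD/R, a log2 difference of 1.75 with an SD of 0.06 over spots. Its size depended on the processing. It was 1.12 with normexp background correction, and under 2-fold at 0.78 with normexp and loess and at 0.66 with background-subtracted signals centred on the spike-in probes. The scanner's own error model gives each Apoe spot an error of 10% of its signal in each channel, which comes to 0.29 for this difference and 0.20 for the Sup difference in a single pair of spots. Of 7470 RNAs measured in at least 1 channel on both arrays, 4.27% had a ratio higher by 2-fold or more in OGD/R.

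The difference was alike wherever on the array the probe was printed. At the 9 positions retained on both arrays, rows 8 to 165, the ratio difference ran from 1.67 to 1.83 with a median of 1.75. The Sup difference at the same positions ran from -1.94 to -1.76 and was below 0 at all 9. The IP difference ran from -0.047 to 0.046 and was below 0 at 5 of the 9. The Sup difference furthest from the rest was at row 8, where the control spot had the highest Sup signal of its array's Apoe spots.

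**Figure D2:**
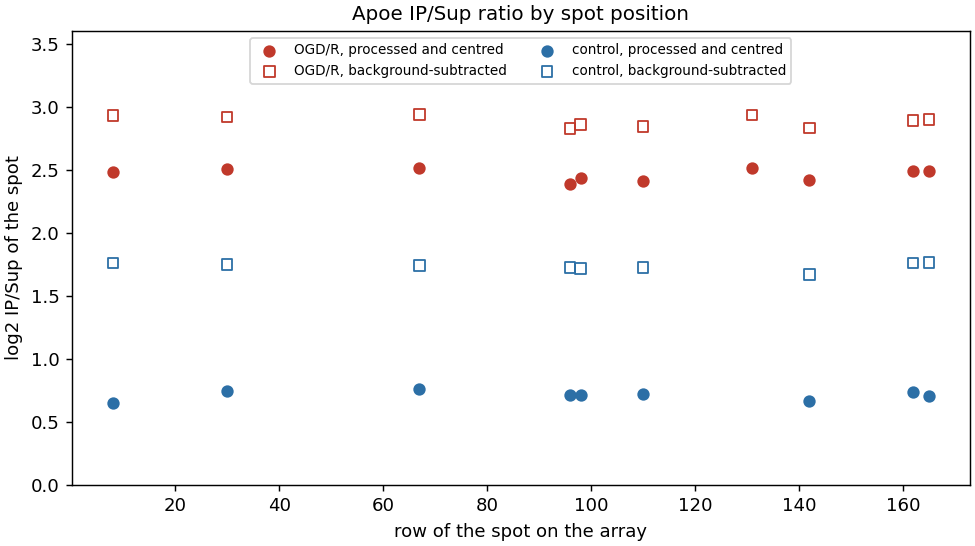
log2 IP/Sup of each retained Apoe spot against its row on the array, for OGD/R and control, from processed signals centred on the array median (filled circles) and from background-subtracted signals without centring (open squares). OGD/R spots lie above control spots at every row with either kind of signal, with a wider gap in the processed signals.

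The sum of both processed channels was lower in OGD/R. Dye normalization multiplied Sup and IP by different factors on each array, and whether the sum follows the amount of Apoe RNA was not tested. The processed sum averaged 850025 ± 12570 over OGD/R spots and 1344552 ± 25719 over control spots (SD, 10 and 9 spots). Scaled, the sum differed by -0.57 (log2, spot SD 0.03), which is less than 2-fold, and 0.843% of the 7470 RNAs had a total at least 2-fold lower. In this sum a fall of 1 channel alone lowers the total, and here the Sup mean differed by -417614 and the IP mean by -76914 before scaling. Scaled to the spike-in probes instead, the total difference was -0.14, so its size depends on what the arrays are scaled to.

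How much of the Apoe difference was present before dye normalization could be read from the background-subtracted signals, a comparison chosen after the data had been seen. In these, Apoe IP averaged 30885 ± 774 over OGD/R spots and 40880 ± 747 over control spots. Apoe Sup averaged 4174 ± 187 over OGD/R spots and 12283 ± 194 over control spots. Both channels were thus lower in OGD/R at this stage, and Sup by more. The dye normalization multiplied Apoe Sup by 37.2 ± 1.0 in OGD/R and 46.6 ± 1.4 in control, and Apoe IP by 22.5 ± 0.59 in OGD/R and 18.9 ± 0.22 in control. These factors widened the gap between the arrays in Sup and narrowed it in IP. From the background-subtracted signals, centred and scaled as before, the ratio difference was 1.12, the Sup difference -1.52 and the IP difference -0.39. The IP share was 88.1% in OGD/R and 76.9% in control. So the higher ratio and the lower Sup signal were present before dye normalization, while the near equality of the IP signals was not.

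The scanner's positive control in the array corners, which is not an RNA of the samples, was read in the same way. Its log2 IP/Sup before centring was 0.55 on the OGD/R array and 0.48 on the control array, a difference of 0.07 with an SD of 0.12 over 13 and 14 spots. Its background-subtracted signals differed by 0.01 in IP and -0.01 in Sup. These values are small beside those of Apoe. They concern the array and its scan, and cannot show how the RNA of the samples fared in pull-down or labelling.

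Apoe was next set against RNAs that were also bright, a set chosen after the data had been seen. It holds the 133 RNAs, Apoe included, with a background-subtracted signal of at least 1000 in both channels on both arrays. The other members were 129 small-RNA probes and the gene probes of Prdx2, H2-Q7 and Gpi1. Their ratio differences ran from -0.89 to 1.32 with a median of 0.27, so Apoe at 1.75 had the highest ratio difference of the set. Their Sup differences ran from -1.63 to 1.08 with a median of -0.16, so Apoe at -1.81 had the lowest. In IP the others ran from -0.54 to 0.64 with a median of 0.15, and 28 of the 132 were lower than Apoe. In this set the ratio was higher by 2-fold or more in OGD/R for 3.76% and Sup lower by as much for 6.77%. Apoe kept both end positions with the background-subtracted signals, with loess on the processed signals, with normexp background correction, and with normexp and loess. As the set is mostly small-RNA probes, these positions do not set Apoe apart from other gene probes.

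Both channels were measured on both arrays for 4909 RNAs, and 1 of them had a higher ratio difference than Apoe. It was the small-RNA probe ASMM10SM20TRFSS100009099TV2, at 1.85 from 1 spot per array. A lower Sup difference than that of Apoe was found in 8 of the other 4908. Over all 7470 RNAs, which include those measured in 1 channel alone, 52 of the other 7469 had a higher ratio difference and 18 a lower Sup difference. With the background-subtracted signals these counts were 369 and 57. In those signals values at or below 0 were set to a small floor. Ratio differences of the others then ran from -12.3 to 11.7, so these counts take in RNAs without signal in a channel. Probes whose identifiers mark them as spike-ins differed as well. Their median ratio difference was 0.20 over the 36 with both channels measured, 25 were above 0, and 1 exceeded Apoe, at 2.10. With each array centred on its own median ratio of these spike-in probes, the Apoe ratio difference was 1.31. That centre is a median within an array and not the median of the differences.

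For the 34 gene probes with both channels measured on each array, the ratio was higher by 2-fold or more in OGD/R in 26.5% and Sup lower by as much in 38.2%. Without Apoe, the median over the other 33 was 0.65 for the ratio, -0.46 for Sup and -0.05 for IP. Normexp brought these medians nearer 0, to 0.20 for the ratio and -0.18 for Sup. When loess followed normexp, they were 0.14 for the ratio and -0.15 for Sup. The background-subtracted signals left the Sup median at -0.46, and their ratio median was 0.49. Loess on the processed signals gave 0.59 for the ratio and -0.42 for Sup. Apoe had the highest ratio difference of the 34 in the main processing and with normexp alone. When loess followed normexp, 3 of the others exceeded it, and 4 did in the background-subtracted signals. Lower Sup differences belonged to Carhsp1, a gene of a cold shock domain protein, at -2.33, and to H2-M2. Sup was at least 2-fold lower in 13 of the 34 gene probes, against 2.7% of the 7970 RNAs measured in Sup. Of these 13, 12, Apoe included, had IP within 2-fold. The share of all RNAs with both traits was not computed, so the 12 cannot be called unusual.

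The genes whose pair of Sup and IP differences lay nearest to that of Apoe were H2-Q7, H2-M2 and Gsdmd. Likeness was the Euclidean distance over both channels, from 1 difference between arrays in each, and was 0.41, 0.55 and 0.56 in that order. H2-Q7, a class I histocompatibility gene, differed by -1.63 in Sup (spot SD 0.05) and by -0.37 in IP (spot SD 0.02). Its IP share was 80.0% ± 0.54 in OGD/R and 63.8% ± 0.73 in control (SD, 8 spots each). H2-M2, of the same family, differed by -1.91 in Sup and by -0.55 in IP. Its IP share was 83.7% ± 0.38 in OGD/R (10 spots) and 67.7% ± 0.66 in control (9 spots). Gsdmd, the pore-forming protein of pyroptosis, differed by -1.28 in Sup and by 0.17 in IP. Its IP share was 84.2% ± 0.44 in OGD/R (9 spots) and 67.3% ± 0.53 in control (10 spots).

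The distances of H2-Q7, H2-M2 and Gsdmd from Apoe were 0.48, 0.56 and 0.54 in the background-subtracted signals. There H2-Q7 and H2-M2 had ratio differences of 0.46 and 0.64, below 2-fold, with both channels lower in OGD/R. Their IP differences were then -0.80 and -0.94, against -0.39 for Apoe. Gsdmd had a ratio difference of 1.18 and an IP difference of 0.02 in those signals, against 1.12 and -0.39 for Apoe. Probes of the class I family can bind transcripts of related genes.

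**Figure D3:**
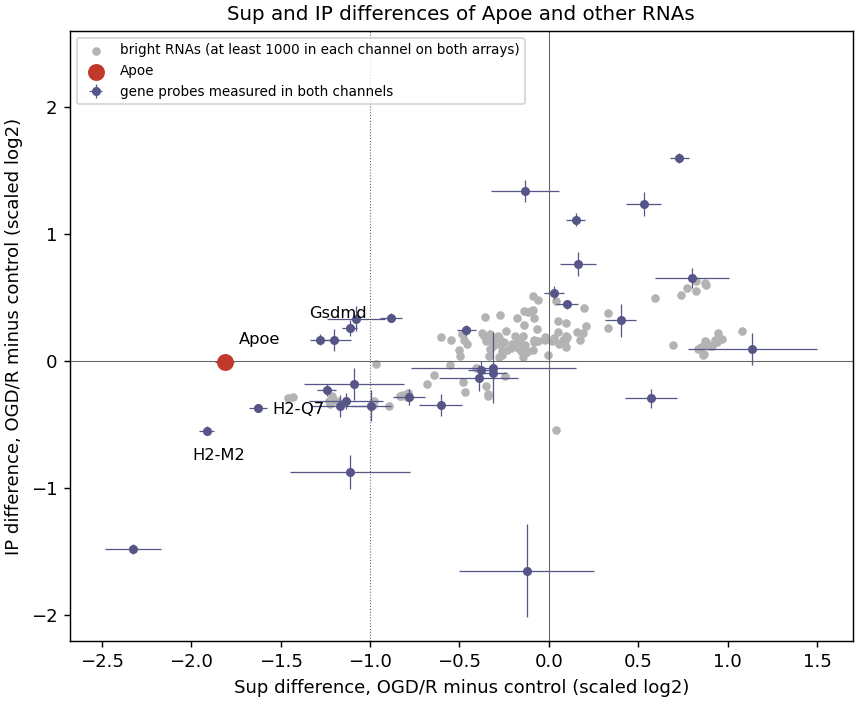
Scaled log2 differences of OGD/R minus control in Sup (horizontal) and IP (vertical) for the 133 bright RNAs (grey) and the 34 gene probes measured in both channels (blue, bars are the SD over repeat spots), with Apoe in red. The dotted line marks a 2-fold lower Sup signal; Apoe lies left of it at -1.81 with an IP difference near 0, to the left of every other bright RNA.

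The lipid pathway around Apoe could not be followed on this array. The 7 lists covered the other apolipoproteins, the receptors of apolipoprotein E, lipidation, transcription of Apoe, cholesterol handling, microglial genes that vary with Apoe, and its genomic neighbours. Apoe was the only gene of these lists among the 46 gene probes with a symbol, and no probe named Abca1, Abcg1 or Trem2 was found. Of 16 microglial markers Apoe was again the only one, so the cells' identity rests on the label of the cell line. The oligodendrocyte gene Mbp was on the array, with 0 of 10 spots well above background in Sup on either array and 10 of 10 in IP on both. None of the 7 astrocyte, 6 neuron or 5 peripheral macrophage markers had a probe with a symbol.

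The plot of the Apoe differences by processing shows which of them held. The Sup difference was at least 2-fold in all 11 alternative settings that gave one, leaving out of single spots aside, from -1.88 to -1.20. The ratio difference was at least 2-fold in 9 of 11 and ran from 0.66 to 1.76. The IP difference changed sign between settings, from -0.56 to 0.29, and reached 2-fold in 0 of 11. The total difference was below 0 in all 10 settings that gave one, from -0.66 to -0.091, and reached 2-fold in 0.

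**Figure D4:**
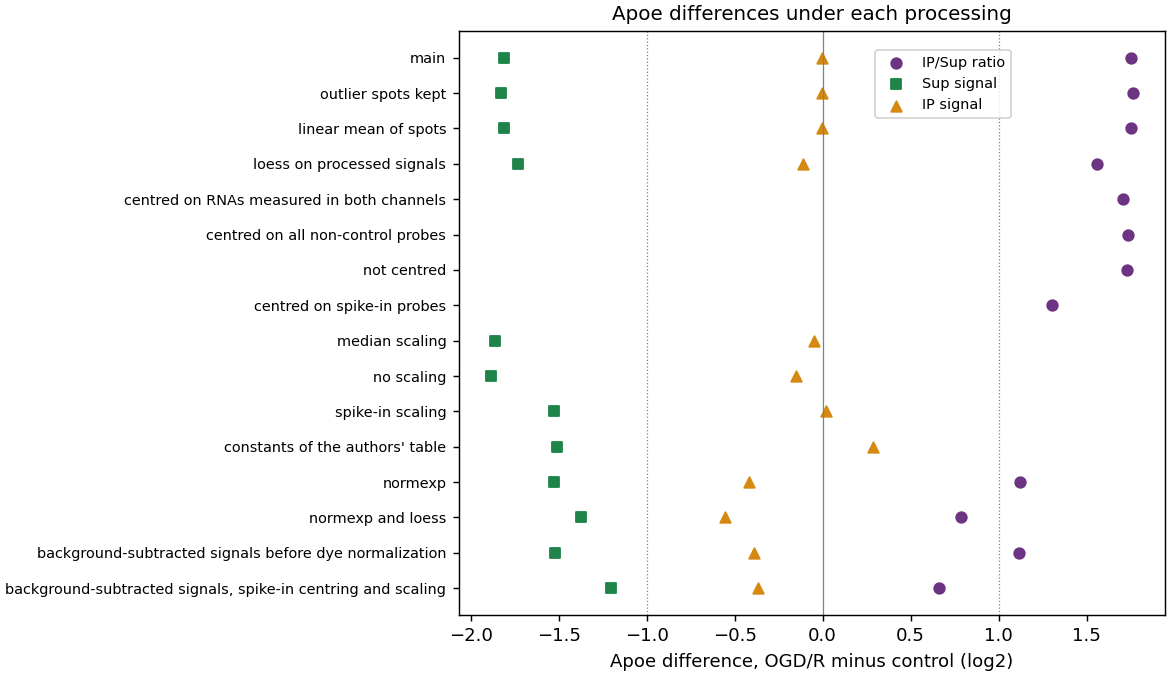
Apoe differences (OGD/R minus control, log2) in the IP/Sup ratio, Sup signal and IP signal under the main processing (top) and each alternative; settings of the scale give no ratio and settings of the centre give no single-channel value. Dotted lines mark 2-fold. Sup stays left of -1 in every setting, the ratio falls below 1 in 2 settings, and IP lies on both sides of 0.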

How the data were processed

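The authors deposited scanner files with fluorescence intensity per spot and channel. Per the file headers, Agilent Feature Extraction 11.0.1.1 subtracted background and balanced the dyes of each array by linear and lowess factors, and did not scale between arrays. The deposited log10 ratio of Cy5 to Cy3 fixed the direction as IP over Sup. The authors' deposited log2 table covers 5702 small-RNA probes and no gene probe, so only its column constants were used. Its columns equal the log2 processed signal minus 13.8 and 14.2 in IP (OGD/R and control) and 11.5 and 11.9 in Sup, and their medians are -4.39 and -4.74 in IP and -2.18 and -2.48 in Sup. The sources used here do not give the origin of these constants. The scanner's flags for outliers and for signal well above background were used as deposited.

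Repeat spots were averaged as log2 values. A channel of a probe was called measured if 50% or more of the retained spots were well above background. Ratios were centred on the array median of 7470 RNAs measured in at least 1 channel on both arrays. Sup was scaled by the 75th percentile over all non-control probes, IP over 5420 probes measured in IP on both arrays, and the sum over the 7470 RNAs. Differences are OGD/R minus control, read against 2-fold, with no p-value. Normexp (offset 50) and loess used limma 3.58.1 on median spot signals, as no mean spot signal was used here. Gene symbols came by accession from RefSeq, for 46 of 50 gene probes. The computation was tested on simulated data. Apoe, the lists and the alternatives were chosen with earlier results of these data known. The named genes were, by rule, Apoe, the 3 nearest gene probes by Sup and IP difference, and list members on the array. Carhsp1 and the small-RNA probe with a higher ratio difference than Apoe were named after their values were seen.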

Additional observations from a re-analysis of the deposited data

How the results depend on the processing

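No replicate arrays exist, so every limit here concerns processing and not biological error, and no paired analysis was possible because each group has 1 array. Leaving out each of the 10 spot positions in turn gave ratio differences of 1.74 to 1.76, Sup -1.82 to -1.80, IP -0.0083 to 0.0029, total -0.58 to -0.57, and IP shares of 81.7% to 81.8% in OGD/R and 57.3% to 57.5% in control. Keeping outlier spots or averaging spots linearly moved every Apoe value by less than the spot SD, and so did centring on all non-control probes, on RNAs measured in both channels, or not at all. The other settings moved some of the values by more than that SD, and the moved values follow. With normexp the ratio difference was 1.12, Sup -1.53, IP -0.42, and the IP share 88.0% in OGD/R and 77.0% in control. With normexp and loess the ratio difference was 0.78, Sup -1.37, IP -0.56, total -0.66, and the share 90.8% in OGD/R and 85.1% in control. Spike-in centring gave a ratio difference of 1.31. Loess on the processed signals gave a ratio difference of 1.56 and, added after seeing the data, Sup -1.73, IP -0.11, total -0.62 and an IP share of 79.6% in OGD/R. Median scaling gave -0.049 in IP. Spike-in scaling gave -1.53 in Sup and -0.14 in total. No scaling gave -1.88 in Sup, -0.15 in IP and -0.66 in total. The constants of the authors' table gave -1.51 in Sup and 0.29 in IP. The other settings added after seeing the data used background-subtracted signals before dye normalization, with a ratio difference of 1.12, Sup -1.52, IP -0.39, and shares of 88.1% in OGD/R and 76.9% in control. Centred and scaled on the spike-in probes, those signals gave 0.66, -1.20, -0.37 and -0.091 for ratio, Sup, IP and total. The cause of these moves was not tested.

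Counts of RNAs at least 2-fold apart also depended on processing. The main counts of higher and lower RNAs were 319 and 446 for the ratio, 241 and 215 for Sup, 238 and 172 for IP, and 93 and 63 for the total. With normexp they were 10 and 5, 11 and 27, 2 and 6, and 8 and 14 in the same order. With normexp and loess they were 7 and 11, 14 and 18, 1 and 8, and 8 and 14. Over RNAs measured in both channels they were 66 and 45, 53 and 100, 55 and 25, and 36 and 38.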
